A study of Mus musculus with 9 samples.

Results

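Kidneys of irbesartan-treated *db/db* mice were compared with kidneys of nondiabetic *db/m* mice, gene by gene, for what stays different from *db/m* under the drug and for what differs from *db/m* only under it. The comparison took in all 22180 genes that carry a probe set with a single symbol, of 22180 in the series, and where a gene has several such probe sets the one with the highest mean was used. The *db/m* mice were male, received vehicle for 12 weeks and carry 1 copy of the *db* mutation, and they are the nondiabetic controls (3 arrays). The untreated *db/db* mice were male and carry 2 copies of the mutation in the leptin receptor gene, and they received vehicle from an age of 10 weeks for 12 weeks (3 arrays). The irbesartan group was male *db/db* mice of the same design that received irbesartan by mouth for 12 weeks in place of vehicle (3 arrays). Each array stands for 1 mouse, and no nondiabetic mouse received irbesartan, so what the drug does in a nondiabetic kidney cannot be read here. The labels name kidney, whereas the methods name renal cortex, another Affymetrix array, a younger age at the start, saline as the vehicle and the C57BL/KsJ background.

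The *db/db* mouse lacks the long form of the leptin receptor, overeats, and becomes obese, insulin resistant and diabetic, with albumin in the urine. Irbesartan blocks the type 1 receptor for angiotensin II, the peptide through which renin and the angiotensin converting enzyme raise blood pressure, narrow glomerular vessels and drive sodium retention and renal scarring. Blocking the receptor is known to protect the diabetic kidney without correcting the obesity or the diabetes itself. The proximal tubule, which makes up most of the cortex, is known to change its drug transporters, steroid-metabolizing enzymes and fuel genes with sex hormones, growth hormone and nutrition.

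Values are RMA values on the log2 scale, on which 1 unit is a doubling, and a fold change is a difference of group means, treated *db/db* minus *db/m* unless another is named. As a check of the labelled tissue, the proximal tubule genes *Lrp2* and *Slc5a2* and the thick limb gene *Umod* stood between 10.59 and 11.97 on every array and the podocyte gene *Nphs1* between 6.21 and 6.63, against a median of 3.39 over all probe sets. Any 2 arrays correlated at 0.984 to 0.994. The mutated gene *Lepr* stood at 3.98, 3.59 and 3.61 in *db/m* and at 3.90, 3.70 and 3.46 in treated mice (log2 fold change -0.04, SE 0.19, limma adjusted p = 0.938). The mutation removes the long form alone and the probe set was not matched to one form, so this value does not check the labels. Single arrays stood apart in some gene groups. *db/m* replicate 3 did so in clock genes, irbesartan replicate 2 in fat cell and macrophage genes, *db/m* replicate 2 in fat cell genes, and untreated *db/db* replicate 3 in neutrophil genes, and their values are given with the results they touch.

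Of the 22180 genes, 862 were called between treated *db/db* and *db/m* kidneys (3.89%), at an absolute log2 fold change above 0.5 and an adjusted p under 0.25 in limma, with 428 higher and 434 lower in treated mice. The 3 treated and 3 *db/m* arrays did not overlap in 803 of the 862, and in 23.5% of all genes. The calls were made on these same arrays. The separation of called genes, here and below, is therefore largely set by the call and is given as a description. At an adjusted p under 0.05 in limma 552 genes remained, 260 higher and 292 lower, and 135 of the 862 changed by more than 1 on the log2 scale. In untreated *db/db* against the same *db/m* arrays 510 genes were called (2.3%), and the step between untreated and treated *db/db* mice gave 223 (1.01%), with 0.577% of all genes higher and 0.428% lower. The median fold change over all genes was -0.001 with and 0.005 without the drug. Both comparisons with *db/m* share its 3 arrays, so an unusual *db/m* value enters both with the same sign.

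The called genes were then sorted by what untreated *db/db* kidneys showed. A total of 326 genes (1.47%) stay different, being called with the same sign with and without the drug, 163 of them higher and 163 lower than in *db/m*. A total of 84 genes (0.379%) differ only under irbesartan, 55 higher and 29 lower. These were not called in untreated *db/db* mice and their step with the drug was called in the same direction. In untreated mice 24 of the 84 had the opposite sign, and the rest already lay on the same side of *db/m*. Their untreated median was 0.08 for those higher and -0.15 for those lower. The largest untreated difference was 0.92, in *Ciart*, on the other side of *db/m*. Between these classes stand 451 genes called only with the drug whose step from untreated to treated *db/db* was not called. Of the 451, 444 already had the same sign in untreated mice. The untreated median was 0.34 for those higher and -0.34 for those lower, against 0.60 and -0.59 with the drug. A further 163 genes were called in untreated *db/db* mice and no longer under the drug, without a called step between them. Another 20 lost their call and moved back in the direction of *db/m* in a step that was itself called, some of them past it. One gene, *Ypel2*, was called on opposite sides of *db/m*.

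**Figure D1:**
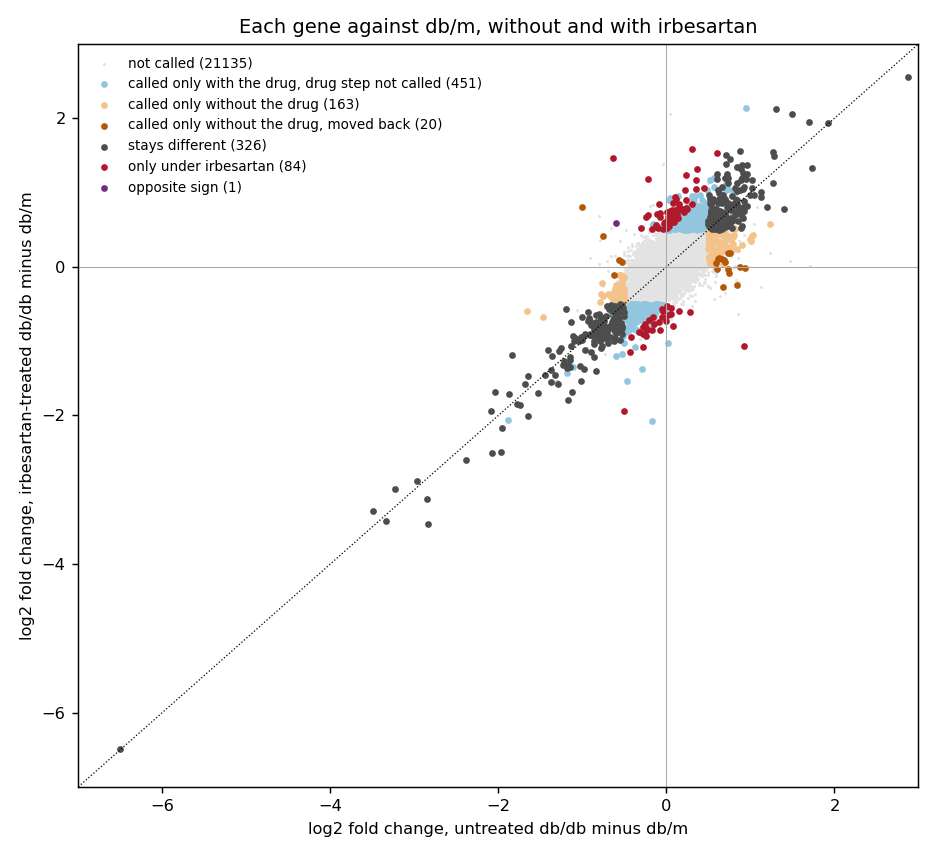
Log2 fold change of each gene against *db/m*, in untreated *db/db* mice on the x axis and in irbesartan-treated *db/db* mice on the y axis (3 arrays a group, dotted line at equal values). The 326 genes that stay different lie along the line down to -6.49 for *Slco1a1*, and the 84 that differ only under irbesartan lie above and below the centre.

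The class of 326 genes was chosen on both differences from *db/m*, which share the *db/m* arrays, so the closeness of the values with and without the drug is largely set by the choice and is given as a description. The median of the 163 higher genes was 0.74 with the drug and 0.70 without, and that of the 163 lower genes was -0.87 and -0.79. In 209 of the 326 the distance was larger with the drug, and in 248 the 2 fold changes were within 0.25 of each other. The step from untreated to treated was called in 6 of them, all away from *db/m*. A gene whose step led back could lose its call against *db/m* and fall among the 20 that moved back. The lack of such steps here therefore follows in part from the rule. A gene far from *db/m* could step back and remain in the class, and 0 of the 326 did so in a called step. The 6 were *Mtarc1*, *Rab30*, *Chp1* and *Slc22a28* with 2 genes that the naming rule passes over, *Mir703* and the predicted gene *Gm3219*. In 304 genes neither the treated nor the untreated arrays overlapped *db/m*, a separation that the calls largely set. RNA of whole tissue cannot tell fewer cells of a type from less RNA per cell, here or below.

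Among the genes that stay lower, transporters and enzymes of steroids and drugs came first. The genes with the most extreme fold changes were named only where treated and *db/m* arrays did not overlap. That separation, here and among the highest genes, is therefore set by the rule and is given as a description. *Slco1a1*, a transporter that takes up organic anions and steroid conjugates, stood at 8.24, 8.62 and 8.21 in *db/m*, at 1.81, 2.05 and 1.71 in untreated and at 1.82, 2.0 and 1.79 in treated *db/db* mice. Both *db/db* groups lay together, far below every *db/m* array, with a fold change of -6.49 under the drug (SE 0.13, limma adjusted p = 6.3e-10). They also lay below the median of 3.39 over all probe sets, where the signal is low and a small step with the drug could be missed. *Cyp7b1*, which hydroxylates oxysterols and steroids, stood at 10.01, 9.53 and 9.87 in *db/m*, at 6.69, 7.35 and 6.81 in untreated and at 6.92, 6.66 and 6.44 in treated mice. It too had no overlap and no return (-3.13, SE 0.19, limma adjusted p = 2.8e-05). *Slc22a7*, a transporter of organic anions in the proximal tubule, stood at 8.14, 7.43 and 6.997 in *db/m*, at 3.75, 3.15 and 5.67 in untreated and at 3.46, 4.48 and 4.38 in treated mice. Its treated arrays were all below *db/m* (-3.42, SE 0.54, limma adjusted p = 0.00818), with the untreated arrays spread around them.

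*Slc22a26*, of the same transporter family, stood at 8.38, 7.39 and 7.61 in *db/m* and at 4.39, 4.56 and 4.56 in treated mice (-3.29, SE 0.23, limma adjusted p = 6.6e-05). *Pzp*, a protease inhibitor of the alpha-2-macroglobulin family, stood at 8.53, 8.53 and 8.47 in *db/m* and at 5.38, 5.10 and 4.66 in treated mice (-3.46, SE 0.31, limma adjusted p = 0.00031). *Alox15*, a lipoxygenase that oxidizes arachidonic and linoleic acid, stood at 7.25, 8.21 and 8.30 in *db/m* and at 4.79, 4.99 and 4.996 in treated mice (-2.997, SE 0.23, limma adjusted p = 0.00012). In none of the 3 did a treated array reach a *db/m* array. The others of the 10 lowest were *Ugt2b37*, a glucuronosyltransferase (-2.89), *Akr1c14* and *Akr1c18*, aldo-keto reductases of steroids (-2.59 and -2.49), and *Ldc1* (-2.50). *Akr1c18* had 1 high *db/m* array, at 7.39 against 5.57 and 5.54. *Hsd17b2*, which inactivates androgens and estrogens, is outside the naming rule and was picked for its value. It stayed lower as well (-2.004, SE 0.15, limma adjusted p = 0.00012).

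**Figure D2:**
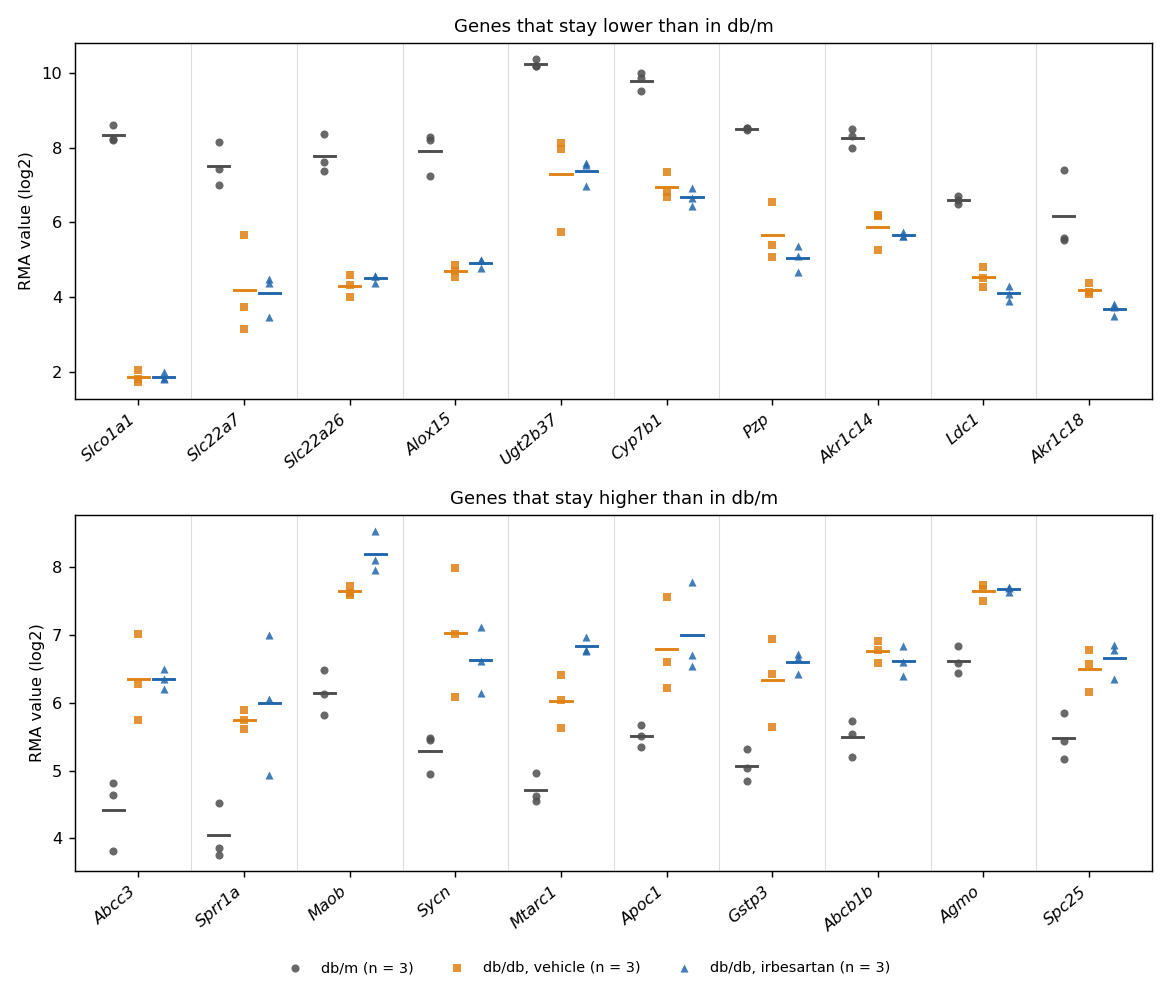
RMA value (log2) of each array, with group means as lines, for the 10 genes that stay lowest (top) and the 10 that stay highest (bottom) against *db/m*, each ranked by the smaller of its fold changes with and without irbesartan (3 arrays a group). In *Slco1a1* both *db/db* groups lie near 1.86 and *db/m* at 8.36.

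Among the genes that stay higher, *Mtarc1*, a mitochondrial enzyme that reduces N-hydroxylated compounds, stood at 4.55, 4.62 and 4.97 in *db/m*, at 6.04, 6.40 and 5.62 in untreated and at 6.77, 6.97 and 6.78 in treated mice. The groups rose in order without overlap, by 1.31 from *db/m* to untreated mice (limma adjusted p = 0.00694) and by a further 0.82 to treated mice (limma adjusted p = 0.162). *Maob*, a mitochondrial oxidase of monoamines, stood at 6.13, 5.81 and 6.48 in *db/m*, at 7.59, 7.62 and 7.71 in untreated and at 8.11, 8.53 and 7.95 in treated mice. All 3 treated arrays were above all others (2.05, SE 0.18, limma adjusted p = 0.00027), and its step with the drug (0.55) was not called at a limma adjusted p of 0.262. *Abcc3*, an efflux pump for glucuronides and bile acids, stood at 3.81, 4.63 and 4.81 in *db/m*, at 6.28, 5.74 and 7.01 in untreated and at 6.20, 6.50 and 6.35 in treated mice. Its means with and without the drug differed by 0.005 (SE 0.30), and both were above *db/m* (1.93, SE 0.30, limma adjusted p = 0.00804).

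*Sprr1a*, a small proline-rich protein of stressed epithelium, spread widely under the drug, at 7.002, 6.06 and 4.94, against 3.86, 4.52 and 3.76 in *db/m* (1.96, SE 0.40, limma adjusted p = 0.0256). *Gstp3*, a glutathione transferase (1.54), *Apoc1*, an apolipoprotein of remnant particles (1.496), *Abcb1b*, a drug efflux pump (1.12), *Agmo*, which cleaves ether lipids (1.06), and *Sycn* (1.34) were the next. *Sycn*, a protein of secretory granules, was no longer called without irbesartan replicate 2. *Spc25*, a kinetochore subunit, also stayed higher (1.17, SE 0.20, limma adjusted p = 0.0127). *Noct*, a clock-controlled phosphatase of NADPH, stood at 7.13, 8.28 and 8.62 under the drug against 5.72, 6.31 and 5.58 in *db/m* (2.14, SE 0.36, limma adjusted p = 0.0119). It belongs to neither class, since neither its difference in untreated mice (0.95, limma adjusted p = 0.291) nor its step with the drug (1.19, limma adjusted p = 0.253) was called. The predicted gene *Gm6614*, passed over by the naming rule and picked for its value, was higher still (2.56).

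Drug transporters and drug-metabolizing enzymes held many of these genes. List counts here and below stand against 3.89% of all genes called with the drug (1.93% higher and 1.96% lower) and 2.3% without it. Of 36 measured transporters of organic anions and cations, 4 were higher and 7 lower than in *db/m* (30.6% of the list). Of these 11, 9 stay different, and the list median was -0.07, against -0.001 over all genes. The lower ones were 5 members of the *Slc22a* family, *Slco1a1* and *Slco4c1*. Among them *Slc22a28* fell further under the drug, from 8.21 in *db/m* to 7.05 in untreated and 6.42 in treated mice (step of -0.62, limma adjusted p = 0.193), and *Slc22a12*, the urate exchanger of the tubule brush border, was called under the drug (-0.69, SE 0.15, limma adjusted p = 0.0338). The higher ones were the efflux pumps *Abcc3*, *Abcb1b*, *Abcb1a* (0.71) and *Abcc4* (0.89), each of which stays different. Within the list all carriers that passed were lower, all pumps that passed were higher, and the other 25 members did not pass. *Slc22a29*, a family member outside the list with a very low signal, was called higher, at 2.28, 2.26 and 2.29 against 1.62, 1.98 and 1.596 in *db/m* (0.55, SE 0.12, limma adjusted p = 0.0364). Leaving out any 1 array gave 4 higher and 7 to 9 lower.

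Of 53 measured cytochrome P450 genes and partners, 10 were higher and 4 lower (26.4% of the list, median 0.04), and 10 of the 14 stay different. *Cyp4a14*, a lipid hydroxylase induced by PPAR alpha, stood at 10.02, 10.29 and 10.48 in *db/m*, at 11.07, 11.003 and 11.38 in untreated and at 11.52, 11.74 and 11.49 in treated mice, with no overlap (1.32, SE 0.14, limma adjusted p = 0.00128). *Cyp2d22* (1.08), *Cyp2d26* (0.96), the steroid 17-hydroxylase *Cyp17a1* (0.96) and the epoxide hydrolase *Ephx1* (0.97) also stay higher, and *Cyp2j13* (-1.33) and *Cyp2a4* (-0.85) stay lower. *Cyp2c55*, which oxidizes arachidonic acid, was the 1 member that differs only under irbesartan, at 5.06, 4.91 and 4.97 against 4.198, 4.08 and 4.11 in *db/m* and 4.25, 3.98 and 3.90 in untreated mice (0.85, SE 0.11, limma adjusted p = 0.0029). It has 2 probe sets and was no longer called when they were averaged. The vitamin D hydroxylase *Cyp27b1* was called (0.77, limma adjusted p = 0.233), but its treated and *db/m* arrays overlapped and leaving out any of 5 arrays of the 6 ended the call. Of 40 measured glucuronosyl, glutathione and sulfo transferases, 6 were higher and 4 lower (25%, median 0.14). The glutathione transferases *Gsto1* (1.04, SE 0.10, limma adjusted p = 0.00065), *Gsta4* and *Gsta3* (0.73) stay higher, and *Ugt2b37*, *Ugt2b38* (-1.12) and *Ugt8a* (-0.95) stay lower. Of 36 measured NRF2 targets and antioxidant genes, 5 were higher and 2 lower (19.4%, median -0.04). Among them were the superoxide-producing oxidase *Nox4* (0.67, SE 0.13, limma adjusted p = 0.0193) and the metal-binding *Mt1* (0.65). The NRF2 count of 5 higher was 3 without *db/m* replicate 1 and without irbesartan replicate 2 or 3, and the count of 2 lower was 4 without *db/m* replicate 1 or irbesartan replicate 3 and 1 without *db/m* replicate 3.

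**Figure D3:**
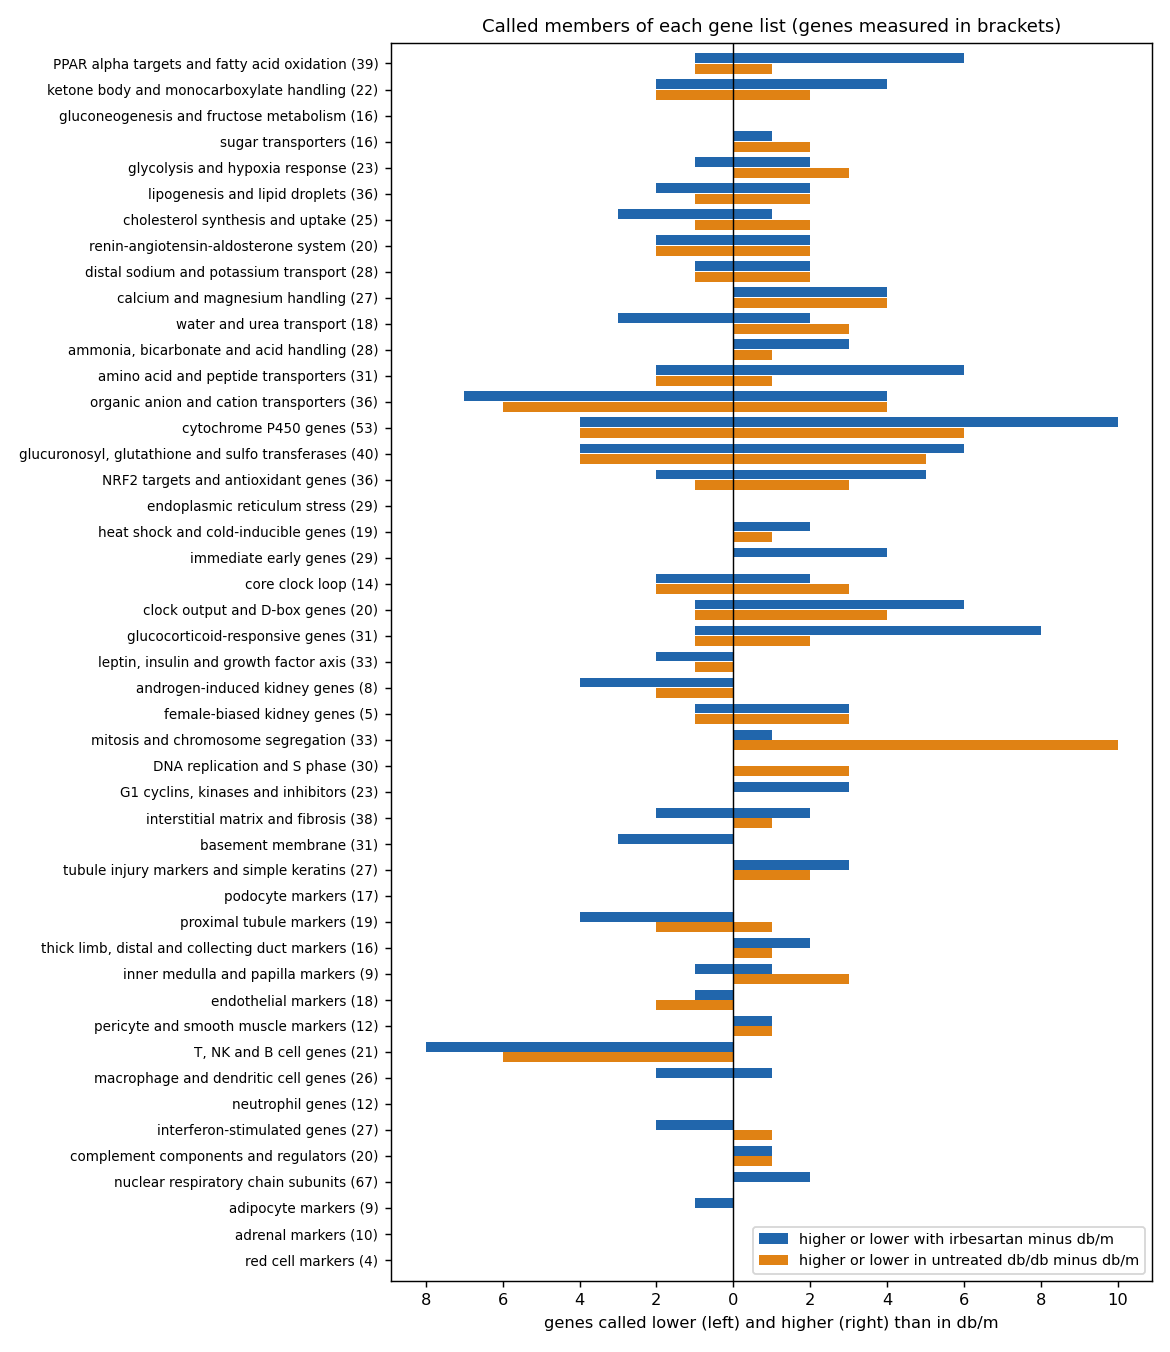
Number of members of each gene list called lower (left) and higher (right) than in *db/m*, with irbesartan in blue and in untreated *db/db* mice in orange, with the number of genes measured in brackets. Mitosis genes are called 10 times without the drug and 1 time with it, and of 21 T, NK and B cell genes 8 are called lower with it and 6 without it. Over all genes 3.89% are called with the drug and 2.3% without it.

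Several of the genes above are known to follow sex hormones in the mouse kidney, and all mice here were male. Of 8 measured genes induced by androgens in the mouse kidney, 4 were lower and 0 higher in treated mice than in *db/m* (50%, median -0.36). Without the drug 2 were lower and 0 higher. *Kap*, the kidney androgen-regulated protein, stood at 11.70, 11.71 and 11.87 in *db/m* and at 10.69, 10.98 and 10.60 in treated mice, with no overlap (-1.01, SE 0.12, limma adjusted p = 0.00201). The others were *Slco1a1*, *Odc1*, which makes polyamines (-0.60, SE 0.13, limma adjusted p = 0.0305), and *Hsd11b1*, which regenerates glucocorticoid (-0.51, limma adjusted p = 0.0448, not called without *db/m* replicates 1 and 3 or irbesartan replicate 3). *Cyp4a12a*, listed as androgen-induced too, did not pass (0.15). Of 5 measured genes known to be higher in female mouse kidneys, 3 were higher and 1 lower (80%, median 0.87), and these 4 stay different. *Slc7a12*, an amino acid transporter, was among the higher (0.87, SE 0.14, limma adjusted p = 0.00969), with *Cyp4a14* and *Abcc3*, and the estrogen receptor *Esr1* was the lower, at 6.33, 6.56 and 6.40 against 7.42, 7.12 and 7.12 (-0.78, SE 0.12, limma adjusted p = 0.00813). Both lists hold genes already named above and were chosen with earlier results of these data known, so their shares are not independent evidence. That these genes differ between the sexes was not measured here.

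Fuel genes moved in both directions. Of 39 measured PPAR alpha targets and fatty acid oxidation genes, 6 were higher and 1 lower with the drug (17.9%, median 0.16). Without it 1 was higher and 1 lower, and 2 of the 7 stay different. *Ppara* itself, the receptor that switches on fat burning, was called with the drug (0.61, SE 0.14, limma adjusted p = 0.0461) and stood at 7.70 in *db/m*, 7.99 in untreated and 8.30 in treated mice. *Acot3* (0.80) and *Acot2* (0.54), thioesterases of acyl-CoA, and *Fabp1*, a fatty acid binding protein (1.06), were called with the drug. *Acot2* was not called without *db/m* replicates 1 and 2 or irbesartan replicates 2 and 3, and *Fabp1* not without *db/m* replicate 2. Neither of these was called by an unmoderated ANOVA, and the mean signal of *Fabp1* lay below the median of 3.39 over all probe sets. *Cd36*, which takes up fatty acids, went the other way and stays lower, at 8.24, 8.87 and 7.90 against 10.16, 9.998 and 9.91 in *db/m* (-1.69, SE 0.19, limma adjusted p = 0.00191). *Plin4*, a lipid droplet coat protein (1.27, SE 0.27, limma adjusted p = 0.0302), and *Elovl6*, which lengthens fatty acids (0.76), stay higher, and *Me1*, which supplies NADPH for fat synthesis, stays lower (-0.75). Fat cell markers were also uneven between arrays: *Lep*, *Cidec* and *Retn* stood at 7.15, 6.69 and 5.61 in irbesartan replicate 2 and at 3.98, 5.53 and 5.57 in *db/m* replicate 2, whereas *Adipoq* lay between 2.49 and 3.40 in all 9 arrays. Of 9 measured fat cell markers 1 was called, *Car3*, lower (-2.06), with overlapping treated and *db/m* arrays. *Car3* was not called without *db/m* replicate 2 or 3 or irbesartan replicate 1 or 3. The mean level of the 9 markers ran from 4.34 to 5.31 in *db/m*, from 4.08 to 4.24 in untreated and from 4.16 to 5.73 in treated mice. Their part in the lipid genes was not tested, and without irbesartan replicate 2 the PPAR alpha list held 4 higher and 1 lower.

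Of the 4 pyruvate dehydrogenase kinases, which stop pyruvate from entering the citric acid cycle, *Pdk1* stays higher (0.96, SE 0.14, limma adjusted p = 0.00633) and *Pdk3* stays lower (-0.58, SE 0.13, limma adjusted p = 0.0381, not called without *db/m* replicate 1 or irbesartan replicate 1), while *Pdk4* differs only under the drug. *Bdh1*, which interconverts the ketone bodies, stays lower (-0.87, SE 0.12, limma adjusted p = 0.00387). Cholesterol synthesis and uptake had 25 measured genes, of which 1 was higher and 3 lower (16%). The median was -0.29, with 6 of the 25 fold changes above 0. *Cyp51*, the lanosterol demethylase, stood at 7.58, 7.32 and 7.41 in *db/m*, at 5.70, 5.21 and 5.52 in untreated and at 5.29, 5.10 and 5.43 in treated mice. It had no overlap and stays lower (-2.16, SE 0.14, limma adjusted p = 3.6e-05). *Sqle*, the squalene epoxidase, was called with the drug (-0.85, SE 0.17, limma adjusted p = 0.0211), and *Abca1*, which exports cholesterol, stays higher (0.83, SE 0.18, limma adjusted p = 0.0302). The count of 3 lower ran from 2 without *db/m* replicate 3 or irbesartan replicate 2 to 4. None of 16 measured genes of gluconeogenesis and fructose metabolism was called by limma or ANOVA (3 at an unadjusted limma p under 0.05).

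The system that irbesartan blocks held 4 called genes of 20 measured (20%), from a list of 24. No value of the renin gene *Ren1* is given here, so its change cannot be read from this list. *Ace*, the converting enzyme of angiotensin, stood at 9.92, 9.53 and 10.05 in *db/m*, at 8.87, 8.83 and 8.86 in untreated and at 8.72, 9.07 and 8.90 in treated mice. It stays lower, with no overlap (-0.94, SE 0.14, limma adjusted p = 0.00571). *Sgk1*, the kinase that aldosterone induces to hold sodium channels at the cell surface, stood at 8.01, 7.87 and 7.52 in *db/m*, at 8.39, 8.25 and 8.94 in untreated and at 8.66, 9.28 and 9.22 in treated mice, and stays higher (1.25, SE 0.21, limma adjusted p = 0.0111). *Rgs5*, a brake on signals from the angiotensin receptor in vessel wall cells, stays higher (0.72, SE 0.11, limma adjusted p = 0.00765), and *Hsd11b1* was lower. The drug's target, *Agtr1a*, did not pass (-0.21, SE 0.10, limma adjusted p = 0.293), and neither did *Agtr1b* (-0.15), the substrate *Agt* (0.29) or the receptor *Mas1* (-0.49), which was called without the drug (-0.64, limma adjusted p = 0.0485).

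Further along the nephron, *Scnn1a*, the alpha subunit of the sodium channel, stays higher (0.75, SE 0.14, limma adjusted p = 0.0197). The potassium channel *Kcnma1* stays lower (-0.70, SE 0.11, limma adjusted p = 0.00653), but was not called when its probe sets were averaged. With *Sgk1*, *Scnn1a* and *Kcnma1* were the 3 called of 28 measured genes of distal sodium and potassium transport (10.7%, median 0.24), and 5 were higher without *db/m* replicate 3. Markers of the thick limb, distal tubule and collecting duct moved beside them, with 2 of 16 measured higher and 0 lower (12.5%). Of the 16 fold changes 14 were above 0, and the median was 0.30 (0.27 in untreated mice). Their mean level ran from 8.68 to 8.77 in *db/m*, from 8.97 to 9.0 in untreated and from 9.01 to 9.06 in treated mice. Of 19 proximal tubule markers 0 were higher and 4 lower (21.1%, median -0.03). The mean level of these 19 ran from 10.47 to 10.62 in *db/m* and from 10.24 to 10.34 in treated mice. The part of these segments in the distal and proximal genes named here was not tested. Of 27 measured genes of calcium and magnesium handling, 4 were higher and 0 lower (14.8%). *Calb1*, the calcium-binding protein of the distal tubule, stays higher (0.73, SE 0.16, limma adjusted p = 0.0318), as does the sodium-calcium exchanger *Slc8a1* (0.52, SE 0.13, limma adjusted p = 0.051, not called without *db/m* replicate 1 or irbesartan replicate 3). The count of 4 was 2 without *db/m* replicate 1 and without irbesartan replicate 1, and 1 without irbesartan replicate 3. Of 31 measured amino acid and peptide transporters, 6 were higher and 2 lower (25.8%, with 3 higher without *db/m* replicate 1). *Slc7a13*, a transporter of the late proximal tubule, stays lower, at 9.35 against 10.74 in *db/m* (-1.39, SE 0.21, limma adjusted p = 0.00689), and *Slc36a4* differs only under the drug. Among 28 measured genes of acid and ammonia handling 3 were higher (10.7%, with 5 without *db/m* replicate 3). Of the 3, the anion channel *Aqp6* was the one called whichever array was left out (0.63, SE 0.10, limma adjusted p = 0.00846). Among 18 of water and urea transport 2 were higher and 3 lower (27.8%). *Agmat*, which hydrolyzes agmatine, was lower (-0.70, SE 0.10, limma adjusted p = 0.00562), as was *Aqp7*, a glycerol and water channel of the late proximal tubule (-0.51, not called without *db/m* replicate 3 or irbesartan replicate 3), and *Arg2*, the mitochondrial arginase, was higher (1.04, limma adjusted p = 0.11, not called without *db/m* replicate 1 or irbesartan replicate 1).

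The 84 genes that differ only under irbesartan included 5 genes of the clock loop and its outputs, *Cry1*, *Nr1d1*, *Ciart*, *Nfil3* and *Lonrf3*. Both calls that make this class use the 3 treated arrays, so their separation from both other groups is largely set by the choice. It is given as a description, with no overlap with either group in 81 of the 84. In the clock, the activators Arntl and Clock bind E-box letters and switch on the *Per*, *Cry*, *Nr1d* and *Ciart* genes, whose proteins then hold the activators or their genes in check, and Dbp and Nfil3 compete for D-box letters of output genes. The 250 bases before the gene start of 3 such genes that differ only under the drug are shown because they hold the E-box CACGTG, and those of 2 genes that stay lower because they hold the D-box TTATGTAA or TTACGTAA, on either strand, with each match in capitals (RefSeq, GRCm38.p6, 5′ to 3′ on the gene's strand).
Cry1, chr10:85185055-85185304, minus strand: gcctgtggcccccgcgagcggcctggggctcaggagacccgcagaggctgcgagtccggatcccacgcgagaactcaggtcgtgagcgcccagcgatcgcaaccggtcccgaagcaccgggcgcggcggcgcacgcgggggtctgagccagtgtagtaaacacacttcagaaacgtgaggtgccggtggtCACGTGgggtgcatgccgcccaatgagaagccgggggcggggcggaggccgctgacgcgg
Ciart, chr3:95882229-95882478, minus strand: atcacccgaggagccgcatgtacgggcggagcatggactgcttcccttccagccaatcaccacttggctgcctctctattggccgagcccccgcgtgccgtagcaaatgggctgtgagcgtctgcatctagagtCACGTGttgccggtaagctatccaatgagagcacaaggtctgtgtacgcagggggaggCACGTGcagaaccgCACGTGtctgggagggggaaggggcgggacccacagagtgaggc
Lonrf3, chrX:36328159-36328408, plus strand: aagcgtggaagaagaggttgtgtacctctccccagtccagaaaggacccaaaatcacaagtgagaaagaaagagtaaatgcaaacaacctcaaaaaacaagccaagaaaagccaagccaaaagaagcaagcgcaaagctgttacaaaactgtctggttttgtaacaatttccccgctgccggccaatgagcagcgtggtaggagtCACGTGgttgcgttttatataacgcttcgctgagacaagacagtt
Sec14l3, chr11:4064603-4064852, plus strand: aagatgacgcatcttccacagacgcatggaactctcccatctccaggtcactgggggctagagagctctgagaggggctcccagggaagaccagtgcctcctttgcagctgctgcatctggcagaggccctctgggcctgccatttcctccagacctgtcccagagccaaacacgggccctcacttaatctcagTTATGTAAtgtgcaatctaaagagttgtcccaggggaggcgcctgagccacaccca
Akr1c18, chr13:4150647-4150896, minus strand: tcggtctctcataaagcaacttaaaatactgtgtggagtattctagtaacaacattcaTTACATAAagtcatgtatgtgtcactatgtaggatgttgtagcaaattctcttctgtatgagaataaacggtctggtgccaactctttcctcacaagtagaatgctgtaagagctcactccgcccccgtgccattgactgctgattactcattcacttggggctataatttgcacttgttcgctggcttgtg
In the 300 bases around the start, an E-box was found in 3 of 31 higher and 3 of 21 lower genes that differ only under the drug and have a promoter in the table, and in 9.19% of the 16990 tested genes with one. A D-box was found in 0 of 116 genes that stay higher and 5 of 121 that stay lower (4.13%), and in 1.16% of all. A match of letters is not a bound site.

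*Nr1d1*, the nuclear receptor that represses *Arntl*, stood at 8.70, 9.04 and 9.31 in *db/m*, at 8.73, 8.85 and 7.95 in untreated and at 7.27, 7.16 and 6.81 in treated mice. The treated arrays were below every other array, and the difference from *db/m* was -1.94 (SE 0.23, limma adjusted p = 0.00201) and from untreated mice -1.43 (limma adjusted p = 0.0722). *Cry1*, which shuts off the activators, stood at 3.39, 3.59 and 4.13 in *db/m*, at 4.24, 3.94 and 4.73 in untreated and at 5.08, 5.39 and 5.23 in treated mice. It was above every other array under the drug (1.53, SE 0.21, limma adjusted p = 0.00472), though untreated mice were also above *db/m* by 0.60 (limma adjusted p = 0.256). *Nfil3*, the D-box repressor, stood at 4.72, 5.25 and 5.66 in *db/m*, at 4.93, 4.66 and 5.41 in untreated and at 6.24, 6.44 and 6.51 in treated mice, again with no overlap (1.19, SE 0.23, limma adjusted p = 0.0206).

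*Ciart*, a repressor of the same loop, stood at 7.38, 7.02 and 5.72 in *db/m*, at 7.82, 7.86 and 7.21 in untreated and at 5.62, 5.49 and 5.79 in treated mice. *db/m* replicate 3 lay among the treated ones (-1.07, SE 0.34, limma adjusted p = 0.133), and the call was lost without *db/m* replicate 1 and without irbesartan replicates 1 and 2. *Arntl* showed the same split of the controls, at 5.41, 5.59 and 6.89 in *db/m*, 4.69, 4.71 and 5.48 in untreated and 6.53, 7.06 and 6.73 in treated mice. It was not called against *db/m* (0.81, limma adjusted p = 0.259), while untreated mice were below *db/m* (-1.002, limma adjusted p = 0.232) and the step between them was called. *Dbp* ran the opposite way, at 8.68, 8.18 and 7.13 in *db/m* and 7.37, 7.21 and 7.52 in treated mice (-0.63, limma adjusted p = 0.363). In *Arntl*, *Ciart*, *Dbp*, *Npas2* and *Nr1d2*, *db/m* replicate 3 stood apart from the other 2 *db/m* mice, and in *Arntl*, *Ciart* and *Dbp* it lay within or near the treated arrays. The hour of kidney collection is not given in the sources used here.

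Over the whole core loop, 2 of 14 measured genes were higher and 2 lower under the drug (28.6%, median 0.35), against 3 higher and 2 lower in untreated mice. *Cry2* was the member that stays different (0.51, limma adjusted p = 0.0765, not called without *db/m* replicates 2 and 3 or irbesartan replicates 1 and 2). *Npas2* (-1.65), *Per1* (0.63) and *Per3* (0.99) were called in untreated mice and not under the drug (-0.60, 0.49 and 0.37), and *Clock*, *Arntl2*, *Rora*, *Rorb*, *Csnk1e* and *Nr1d2* passed in neither. Without *db/m* replicate 3 the loop also held 2 higher and 2 lower. It held 4 higher without *db/m* replicate 1 or 2 and 1 higher without irbesartan replicate 2, and 1 lower without *db/m* replicate 1 or irbesartan replicate 1 or 2. Of 20 measured output genes, 6 were higher and 1 lower (35%, median 0.29). *Wee1*, a kinase that holds cells out of mitosis, stays higher, at 7.77, 7.78 and 8.02 against 6.93, 6.94 and 6.53 (1.06, SE 0.13, limma adjusted p = 0.00243). *Nampt*, the enzyme of NAD salvage, stays higher as well (0.83, SE 0.13, limma adjusted p = 0.00935), and *Lonrf3* differs only under the drug (0.79, SE 0.11, limma adjusted p = 0.005). *Ypel2* stood below *db/m* without the drug (-0.61) and above it with the drug (0.58), and the second call was lost without any of 5 of the 6 arrays compared.

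**Figure D4:**
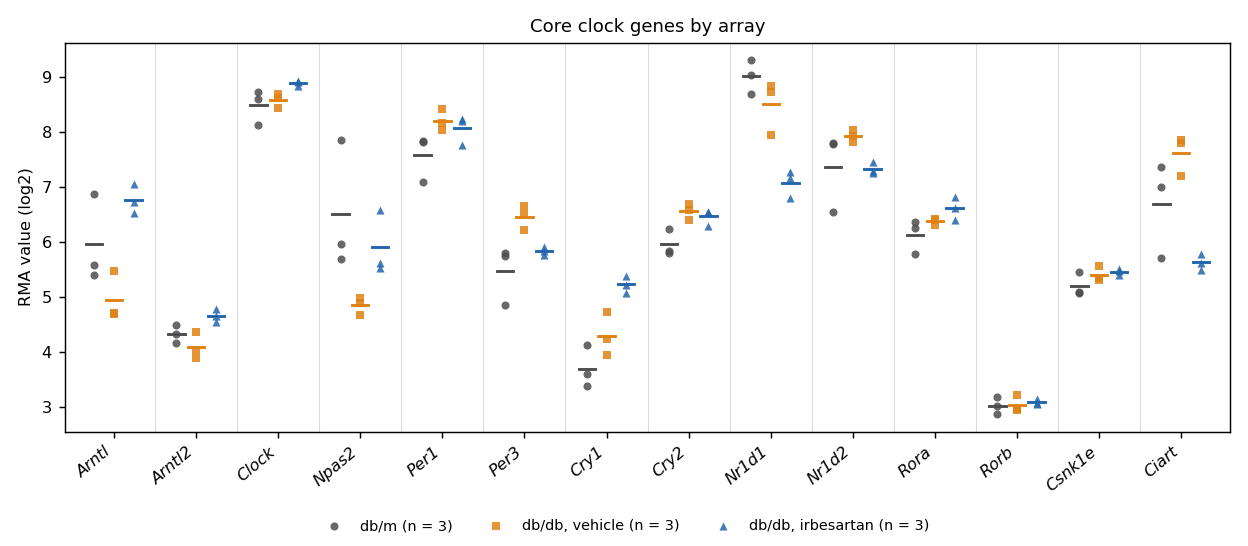
RMA value (log2) of each array for the 14 measured genes of the core clock loop, with group means as lines (3 arrays a group). *Nr1d1* and *Cry1* under irbesartan lie outside both other groups, and in *Arntl*, *Npas2*, *Nr1d2* and *Ciart* the *db/m* arrays split into 2 and 1.

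Outside the clock, *Pdk4*, which spares glucose by blocking pyruvate dehydrogenase, differs only under the drug. It stood at 7.10, 7.498 and 8.64 in *db/m*, at 7.06, 6.14 and 8.12 in untreated and at 8.67, 9.61 and 9.36 in treated mice. The lowest treated array lay just above the highest *db/m* array (1.47, SE 0.48, limma adjusted p = 0.144), and the call was lost without *db/m* replicate 1 and without irbesartan replicates 2 and 3. *Wsb1*, part of a ubiquitin ligase, separated the groups more cleanly, at 7.19, 7.80 and 7.32 against 5.82, 6.42 and 6.37 in *db/m* and 6.43, 6.40 and 6.46 in untreated mice (1.23, SE 0.18, limma adjusted p = 0.00577). *Slc36a4*, a transporter of tryptophan and proline, stood at 7.79, 7.77 and 8.15 against 6.45, 6.77 and 6.55 in *db/m* (1.32, SE 0.21, limma adjusted p = 0.00906). When its 2 probe sets were averaged *Slc36a4* left this class but stayed called against *db/m*. *Ttpa*, the carrier of vitamin E, stood at 7.58, 7.603 and 7.57 against 6.46, 6.84 and 6.28 (1.06, SE 0.15, limma adjusted p = 0.00441). These 3 did not overlap with either other group.

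*Rpl9* (1.58) and *Rps13* (1.17), proteins of the 2 ribosomal subunits, were also among the 10 highest, with *Lingo4* (1.05) and *Ly6c2* (0.90), a surface protein of monocytes and endothelium. Of the 84 genes, 13 were pseudogenes by their RefSeq class and 63 protein coding, and signal of a ribosomal protein gene and of its near-identical copies cannot be told apart by a shared probe. *Hif3a*, a hypoxia-responsive factor (0.68, SE 0.15, limma adjusted p = 0.0365), *Slc16a6*, a ketone body carrier (0.85, limma adjusted p = 0.0598), *Txnip*, a glucose-responsive inhibitor of thioredoxin (0.51, limma adjusted p = 0.13), and the small GTPase *Rasl11a* (0.51, limma adjusted p = 0.0264), were higher only under the drug. *Hif3a* and *Slc16a6* lie outside the naming rule and were picked for their values, and the calls of *Txnip* and *Rasl11a* were each lost without 3 of the arrays.

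Among genes lower only under the drug, *Slc39a10*, a zinc importer, stood at 6.65, 6.67 and 6.46 in *db/m*, at 6.35, 6.19 and 6.50 in untreated and at 5.59, 5.60 and 5.80 in treated mice, with no overlap (-0.93, SE 0.11, limma adjusted p = 0.00204). *Gjb2*, a gap junction protein, stood at 8.72, 8.69 and 8.82 against 9.81, 9.68 and 9.45 (-0.90, SE 0.12, limma adjusted p = 0.00441). *Slc17a4*, a sodium-driven carrier of phosphate and organic anions, stood at 4.15, 3.68 and 3.97 against 4.78, 5.19 and 5.09 (-1.09, SE 0.15, limma adjusted p = 0.00489). *Lama1*, a laminin chain of tubule basement membrane, stood at 5.18, 5.10 and 5.20 against 5.94, 6.15 and 5.77 in *db/m* and 5.89, 6.26 and 5.95 in untreated mice (-0.79, SE 0.12, limma adjusted p = 0.00771). In all 4 the 3 treated arrays lay below every other array, a separation that the rule for this class largely sets. *Ptpn22*, a phosphatase of lymphocytes (-1.15), *Clec4a3*, a lectin of myeloid cells (-0.85), *Mrnip* (-0.94), *Tmem144* (-0.85) and *Tm7sf3* (-0.85) were the rest of the 10 lowest, beside *Nr1d1*, *Ciart*, *Slc39a10*, *Gjb2* and *Slc17a4*.

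**Figure D5:**
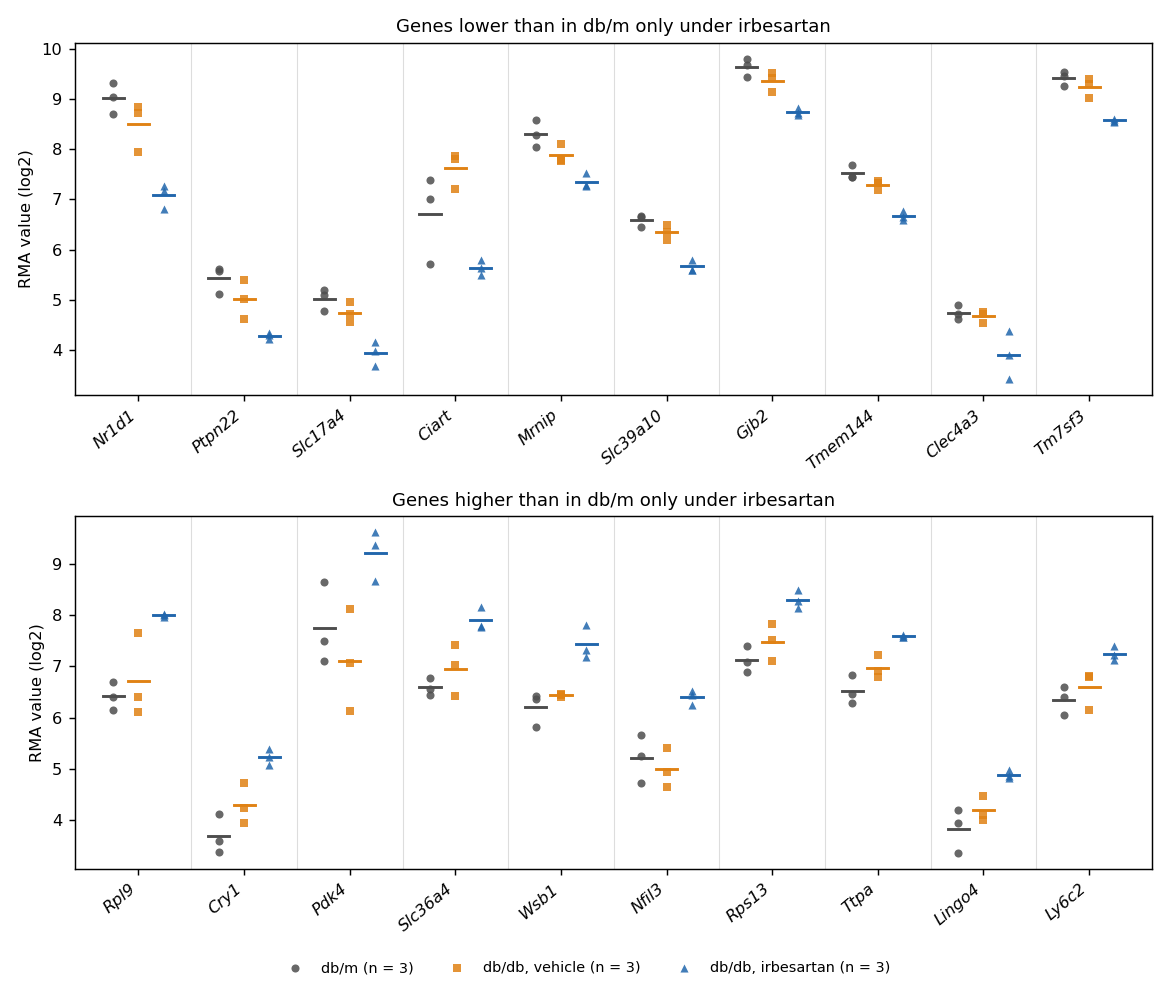
RMA value (log2) of each array, with group means as lines, for the 10 genes lowest (top) and the 10 highest (bottom) against *db/m* among those that differ only under irbesartan (3 arrays a group). In *Wsb1*, *Ttpa*, *Slc39a10* and *Tmem144* the treated arrays lie apart from both other groups, whereas a *db/m* array of *Ciart* reaches them.

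The count of 84 rests on single arrays more than the count of 326. Without irbesartan replicates 1 and 3 it was 16 and 11, and without untreated *db/db* replicate 2 it was 13, while without *db/m* replicate 3 it was 121. Of the 20 genes named for this class, 2 kept it without *db/db* replicate 2, 4 when irbesartan replicate 1 was left out and 2 when irbesartan replicate 3 was, whereas at least 19 of the 20 named genes that stay different kept theirs whichever array was left out. At an adjusted p under 0.05 in both comparisons of the rule the class held 0 genes in limma, since the lowest adjusted p between treated and untreated mice was 0.0561. At an unadjusted limma p under 0.05 it held 118. Against *db/m* alone, 65 of the 84 had a limma adjusted p under 0.05.

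Glucocorticoid, the adrenal stress hormone, induces genes in most tissues. Of 31 measured genes that respond to it, 8 were higher and 1 lower with the drug (29%, median 0.35), against 2 higher and 1 lower without it. Of the 9, 3 differ only under the drug (*Pdk4*, *Wsb1* and *Rasl11a*). *Fkbp5*, a chaperone of the glucocorticoid receptor, was called (0.71, SE 0.23, limma adjusted p = 0.129), but not without *db/m* replicate 1 or irbesartan replicates 2 and 3. *Sgk1*, *Mt1* and the sulfotransferase *Sult1a1* (0.75, SE 0.16, limma adjusted p = 0.0321) were the higher genes called whichever array was left out, besides *Wsb1*. The count of 8 was 5 without *db/m* replicate 1 and without irbesartan replicate 2, and 4 without irbesartan replicate 3. Of 29 immediate early genes, 4 were higher (13.8%), *Jun*, *Btg2*, *Myc* and *Arc*, and none in untreated mice. The count was 1 higher without irbesartan replicate 2 and 2 without irbesartan replicate 3. *Arc*, which acts at synapses, had the lowest limma adjusted p of the 4 (0.53, adjusted p = 0.0149) and was not called without *db/m* replicate 2. The heat shock gene *Hspa1b* stays higher (0.68, SE 0.15, limma adjusted p = 0.0377), and none of 29 measured genes of endoplasmic reticulum stress was called by limma or ANOVA (6 at an unadjusted limma p under 0.05).

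Mitosis genes were called without the drug more than with it, a difference of counts that was not tested as such. Of 33 measured genes of mitosis, 10 were higher in untreated *db/db* mice than in *db/m*, and 1 was higher under the drug, the kinetochore gene *Spc25*, with a median of 0.30 without and -0.03 with the drug. The 1 call is 3.03% of the list, near the 3.89% of all genes. *Ccnb2*, the cyclin of mitotic entry, stood at 4.82, 4.80 and 4.94 in *db/m*, at 5.54, 5.43 and 6.12 in untreated and at 4.63, 4.74 and 4.47 in treated mice, where the treated arrays were just below *db/m* (-0.24, limma adjusted p = 0.48). *Spc25*, in contrast, kept its 3 treated arrays at 6.35, 6.85 and 6.77 above *db/m* at 5.85, 5.18 and 5.44. Of 20 genes that moved back in a called step, *Mki67*, *Top2a*, *Plk1*, *Ccna2* and *Prc1* were higher than *db/m* without the drug. *Zbtb16*, a transcription factor, and *Arntl* were lower without the drug (-0.76 and -1.002) and past *db/m* with it (0.41 and 0.81, neither called). None of 30 measured genes of DNA replication was called by limma or ANOVA (4 at an unadjusted limma p under 0.05), against 3 higher without the drug. Of 23 measured genes of G1, 3 were called higher under the drug (13%, *Cdkn1a*, *Btg2* and *Myc*), and none was called by limma in untreated mice. The median of the G1 genes was 0.07 with the drug and 0.12 without it. The count of 3 was 0 without *db/m* replicate 1 or irbesartan replicate 2 and 1 without *db/m* replicate 2 or irbesartan replicate 3.

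Scar and basement membrane genes held 7 calls, 10.5% of the interstitial matrix list and 9.68% of the basement membrane list, against 3.89% of all genes. Of 38 measured genes of interstitial matrix, 2 were higher and 2 lower (median 0.03), with 4 lower without irbesartan replicate 2. *Thbs1*, which activates latent TGF-beta, was higher (0.70, SE 0.12, limma adjusted p = 0.012), and *Tgfbr2*, its receptor subunit, was lower (-0.58, SE 0.09, limma adjusted p = 0.00641). Of 31 basement membrane and integrin genes, 3 were lower and 0 higher (median -0.12), *Lama1*, *Lama2* (-0.52) and the epithelial integrin *Itgb6* (-0.65, SE 0.13, limma adjusted p = 0.0247), and none was called in untreated mice. Of 27 tubule injury markers and keratins, 3 were higher (11.1%), *Cdkn1a* (0.93), *Fgb* (0.57) and *Cp* (0.57). The count was 1 without *db/m* replicate 1, 6 without *db/m* replicate 3 and 5 without irbesartan replicate 2. *Cdkn1a*, a brake on the cell cycle, lost its call without any of 5 of the 6 arrays compared, and *Cp*, the copper protein ceruloplasmin, kept it. None of 17 podocyte markers was called by limma or ANOVA (3 at an unadjusted limma p under 0.05). Of 18 endothelial markers *Esm1*, an endothelial proteoglycan, was called, at 5.14, 5.35 and 5.37 against 7.03, 6.88 and 6.54 in *db/m*. It stays lower (-1.53, SE 0.22, limma adjusted p = 0.00555). The 1 call is 5.56% of the list, near the 3.89% of all genes.

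A part of the lymphocyte genes stays lower. Of 21 measured genes of T, NK and B cells, 8 were lower and 0 higher under the drug (38.1%, median -0.38). Without it 6 were lower and 0 higher, and 6 of the 8 stay different, while 13 of the 21 were not called. *Cd3e*, a chain of the T cell receptor complex, stood at 5.30, 4.87 and 4.85 in *db/m*, at 4.16, 4.32 and 4.11 in untreated and at 3.96, 4.55 and 4.02 in treated mice, with no overlap (-0.83, SE 0.17, limma adjusted p = 0.0241). *Cd3g* (-0.90), *Cd8a* (-0.81), *Cd8b1* (-0.64) and *Nkg7* (-0.78), of T and NK cells, and *Jchain*, which joins immunoglobulin chains (-1.40, SE 0.28, limma adjusted p = 0.024), also stay lower, although *Cd8b1* was not called without any 1 of 5 of the 6 arrays. *Ighm* was called (-1.38, limma adjusted p = 0.206) with overlapping arrays. The mean level of the list ran from 3.79 to 3.99 in *db/m*, from 3.40 to 3.60 in untreated and from 3.22 to 3.56 in treated mice, near the median of 3.39 over all probe sets, so these are low signals. Leaving out 1 array gave 6 to 10 lower and 0 higher.

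Macrophage genes moved with single arrays. Of 26 measured, 1 was higher and 2 lower (11.5%), and 7 were lower without irbesartan replicate 2. In that array *Gpnmb* and *Trem2*, genes of lipid-laden macrophages, stood at 8.47 and 6.15, where the other 8 arrays lay between 2.69 and 3.62 and between 3.97 and 4.93. The class II gene *H2-Eb1* was lower whichever array was left out (-0.82, SE 0.21, limma adjusted p = 0.0672), and *Csf1r*, the receptor that macrophages need to survive, was not called without *db/m* replicate 3 or irbesartan replicate 1 or 3 (-0.54). *Ly6c2* was the higher gene, and 3 were higher without irbesartan replicate 3. Interferon-stimulated genes gave 2 lower of 27 (7.41%, against 3.89% of all genes), 6 without irbesartan replicate 2 and 0 without *db/m* replicate 1 or irbesartan replicate 1 or 3. None of 12 neutrophil genes was called by limma or ANOVA (1 at an unadjusted limma p under 0.05), and their mean level ran from 3.08 to 3.16 in *db/m*, up to 5.08 in untreated *db/db* replicate 3 and from 3.15 to 3.32 in treated mice. Lists for adrenal gland and red cells, tissues that a dissection could carry, held no call by limma or ANOVA in 10 and 4 measured genes (1 and 0 at an unadjusted limma p under 0.05).

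MicroRNA genes, whose products pair with messenger RNAs through the seed at bases 2 to 8, are read by this array at their precursor. Of 426 measured under a single symbol, 12 were called (2.82%, against 3.89% of all genes), and the 3 that stay different and 2 that differ only under irbesartan are shown with 1 mature sequence each and the seed in capitals, since the seed sets the targets (RefSeq, GRCm38.p6). No 2 of them share a seed.
mmu-miR-703, chr5:98475616-98475636, minus strand: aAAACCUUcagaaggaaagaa
mmu-miR-483-5p, chr7:142654968-142654989, minus strand: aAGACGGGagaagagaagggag
mmu-miR-677-5p, chr10:128085291-128085312, plus strand: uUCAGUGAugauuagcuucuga
mmu-miR-181a-5p, chr2:38852741-38852763, plus strand: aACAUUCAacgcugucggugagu
mmu-miR-1954, chr2:32652342-32652362, plus strand: aCUGCAGAgugagacccuguu
The gene *Mir703* stood at 4.79, 5.11 and 4.90 in *db/m*, at 5.89, 5.42 and 5.61 in untreated and at 6.18, 6.33 and 6.44 in treated mice, rising from group to group without overlap (1.38, SE 0.14, limma adjusted p = 0.00071). *Mir181a-2* differs only under the drug, at 4.29, 3.90 and 4.21 against 3.01, 3.47 and 3.37 (0.85, limma adjusted p = 0.0214), as does *Mir1954* (0.76, limma adjusted p = 0.0358). *Mir483*, in an intron of *Igf2*, stays lower (-0.76, limma adjusted p = 0.0404) and *Mir677* stays higher (0.52, limma adjusted p = 0.152). A precursor probe may also read the host transcript, which was not tested.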

How the data were processed

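RNA of 9 male mice, 3 a group, was extracted with TRIzol, biotin-labelled and hybridised to Affymetrix arrays, 1 array a mouse. Per the labels and the submitters' processing notes, the authors made the deposited log2 values with RMA in Affymetrix Expression Console (background correction, normalization across arrays, 1 value a probe set), and no version or detection call is given in the sources used here. RMA forces the arrays to a common distribution, so a shift of all genes cannot be seen. Of 41345 probe sets, 23521 carry 1 gene symbol, 1820 several and 16004 none here, and only the first kind was used. For the 1082 genes with over 1 probe set the one with the highest mean was kept. Of the called genes 46 have over 1 probe set, and in 19 of them the probe sets had fold changes of opposite sign.

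A mean a group was fitted to all 9 arrays with limma 3.58.1 in R 4.3.3 (6 residual and 5 prior degrees of freedom), and p-values were adjusted by Benjamini-Hochberg over the 22180 genes. A gene was called above 0.5 in absolute log2 fold change and under 0.25 in adjusted p, after the study's methods, whose fold change limit is written the other way round and was read as a lower limit. The script was tested on simulated arrays with independent noise, where some genes changed by 1 or 2 on the log2 scale in the irbesartan group alone. It recovered 96% of those changed by 1, and 12.3% of its calls were false. Only 135 of the 862 real calls were above 1, so these shares do not give the sensitivity or false share of the real calls. The genes that stay different and those that differ only under the drug were not simulated. The number of arrays limits the precision, and the median SE of a difference of 2 groups was 0.118. Processing batches are not given in the sources used here, and p-values measure the spread between these arrays.

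Named genes are those with the 10 highest and 10 lowest fold changes without overlap, the 10 in each direction of each class, called members and extremes of 47 gene lists, members of the clock and renin lists, and *Lepr*, with predicted genes, microRNA genes and olfactory receptors passed over. Not every such gene is printed, and those called whichever array was left out were preferred. The class members, the lists and the tests were chosen with earlier results of these data known, so no list is independent evidence of its direction. Symbols of 21994 genes were matched to RefSeq by gene ID, and sequences come from RefSeq (GRCm38.p6). Alternatives were the samples in the fit, an unmoderated one-way ANOVA, a variance trend, a filter on low values, the probe sets tested or averaged, 2 other scalings, a replicate block, each array left out and stricter thresholds.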

Additional observations from a re-analysis of the deposited data

How the results depend on the processing

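The numbers of genes that differed from *db/m* under irbesartan, that stay different and that differ only under the drug were 862, 326 and 84. With an unmoderated one-way ANOVA 201 stay different and 27 differ only under the drug, and when every probe set was tested 22 differ only under it. At an adjusted p under 0.05 in limma the 3 numbers were 552, 166 and 0, and above an absolute log2 fold change of 1 they were 135, 56 and 6. Leaving out 1 array gave 767 to 1118, 262 to 430 and 11 to 121. The fold change of *Lepr* ran from -0.15 to 0.08 without 1 array and changed sign to 0.08 without *db/m* replicate 1 and to 0.07 without irbesartan replicate 3, never with a call. Centring each array on its median shifted all genes by -0.0363, with 871 called, of which 354 were higher. The cause of these changes was not tested, beside the smaller number of arrays or the stricter limit that an alternative sets by its construction.

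The replicate numbers of the 3 groups do not pair the mice. Deviations of same-numbered arrays from their group means correlated at -0.077 to 0.042. With a replicate block 864 genes were called, 323 stay different and 55 differ only under the drug. Of 168 named or listed genes that were called, 52 lost the call when some 1 array was left out. With 3 arrays a group, and probe sets near the median level of 3.39, small changes of low genes could be missed, although some, such as that of *Slc22a29*, were called.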

Other observations

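The gene families below were chosen after their values were seen. Their counts stand against 3.89% of all genes called with the drug and 2.3% without it. Both monoamine oxidases stay higher under irbesartan, *Maoa* (0.70, SE 0.13, limma adjusted p = 0.0195) as well as *Maob*, and the 2 genes lie next to each other on the X chromosome. A ligand and its receptor stay lower together, *Apln*, the vessel peptide apelin (-0.96, SE 0.17, limma adjusted p = 0.0151), and *Aplnr* (-1.06, SE 0.16, limma adjusted p = 0.00633). The 2 parts of the vascular potassium channel that senses ATP, neighbours in the genome, also stay lower, *Kcnj8* (-0.999, SE 0.18, limma adjusted p = 0.0165) and *Abcc9* (-0.85, SE 0.13, limma adjusted p = 0.00797). *Ccl5*, a chemokine of T cells, stays lower with the T cell genes (-1.37, SE 0.28, limma adjusted p = 0.0266).

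Of 11 measured serine proteases of the *Klk1* and *Klk1b* kallikrein group, 4 were higher than in *db/m* with the drug and 0 lower (median 0.54, against 0.16 in untreated mice). The 4 were all *Klk1b* genes, led by *Klk1b8* (1.25, SE 0.23, limma adjusted p = 0.0151). These genes are near-identical copies, so signal can be shared among their probe sets. Of 5 measured uroplakins, the plaque proteins of urinary epithelium, 3 were higher with the drug and 0 without it (median 0.82, against 0.46 in untreated mice), with the epithelial surface gene *Psca* (1.35, SE 0.35, limma adjusted p = 0.0684). *Upk1b*, 1 of the 3, was not called without *db/m* replicate 1 or 3 or irbesartan replicate 1 or 2. Of 9 measured markers of inner medulla and papilla, a list that shares *Upk1b* and *Upk3a* with the uroplakins, 1 was higher and 1 lower (median 0.41, against 0.51 with 3 higher in untreated mice), and their mean level ran from 4.94 to 5.23 in *db/m*, from 5.23 to 5.79 in untreated and from 5.20 to 5.48 in treated mice. The part of that tissue in the uroplakin values was not tested. Of 17 measured immunoglobulin variable segments 4 were lower (median -0.70, against -0.31 in untreated mice), and of 66 ribosomal protein genes 5 were higher (median 0.08), 3 of them only under the drug.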
